A study of Coturnix japonica with 12 samples.

Results

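The 10 genes described here act on the WNT pathway from outside the cell, receive its signal or are read out as its targets. They were taken by symbol from the table of the whole series: the R-spondins RSPO2 and RSPO3, the secreted inhibitors NOTUM, DKK2, SFRP1 and SFRP2, the receptors FZD10 and LGR5, and the target genes AXIN2 and LEF1. All 10 were found once among 16013 genes. The samples are bulk RNA-seq libraries of Müllerian ducts, which give rise to the oviduct, taken from embryos of female Japanese quail (Coturnix japonica) that grew in surrogate eggshells. The embryos received either sesame oil alone or ethynylestradiol (EE), a synthetic oestrogen, in sesame oil, from embryonic day 3 to day 12, so every group had the oil and the shell-less culture. The 12 samples form 4 groups of 3, which are left and right ducts under oil and left and right ducts under EE. The labels give no dose, quail strain, day of collection or number of embryos per sample. They do not say that replicates of a group are separate embryos, so the p-values measure the spread between these samples.

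WNT proteins are secreted, lipid-modified signals that bind Frizzled receptors together with LRP co-receptors, which stabilises beta-catenin and lets it act with TCF and LEF factors on target genes. R-spondins raise the response by binding LGR receptors and removing the ubiquitin ligases that clear Frizzled from the cell surface. By contrast, NOTUM cuts the lipid from WNT proteins, SFRP proteins bind WNT proteins and DKK2 binds the LRP co-receptors. In mouse embryos WNT signals from the duct epithelium and the surrounding mesenchyme are needed to form and pattern the Müllerian duct.

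Each sample held between 13303458 and 23621985 counts. There were 11790 genes, including all 10, with at least 1 FPKM in all 3 samples of some group, and these were tested. Levels are given as TMM-scaled FPKM, which are counts divided by exonic length and by the sample's total after edgeR's scaling, so that levels can be compared between genes as well as samples. Of 11 markers of the Müllerian duct, 9 or 10 reached 1 FPKM in every library, and LHX2 stayed below it in all. Markers of mesonephric tubules summed to at most 2.39 FPKM and 7 gonad markers to between 3.96 and 8.23 FPKM. Of the gonad markers SOX9 and AMH reached 1 FPKM in every library, and the germ cell markers DAZL and DDX4 stayed at or under 0.17 FPKM. Haemoglobin transcripts took 1.35% to 3.01% of counts in left oil ducts, 6.11% to 12.7% in right oil ducts, 0.991% to 2.1% in left EE ducts and 1.66% to 5.65% in right EE ducts. Right oil ducts thus lay above all other libraries. A fit with this share as a covariate, given below as an alternative, cannot fully separate it from differences of right oil ducts. Skeletal muscle markers summed to 178.7 FPKM in right oil replicate 1 and to between 9.57 and 19.4 FPKM in the other 11 libraries.

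Under oil 6 of the 10 genes differed between left and right ducts, NOTUM, LGR5 and AXIN2 higher on the left and RSPO3, SFRP2 and LEF1 higher on the right, while under EE 0 of the 10 passed the test. NOTUM and RSPO3 had the widest side differences of the 10, in opposite directions. EE lowered RSPO2, DKK2 and SFRP1 and raised FZD10 and LGR5 on both sides. It lowered NOTUM and AXIN2 in left ducts, and RSPO3, SFRP2 and LEF1 in right ducts. A change was called at a Benjamini-Hochberg adjusted p under 0.05 from edgeR's quasi-likelihood test over all tested genes, and of all tested genes 37.5% were called between the sides under oil (19% higher on the left and 18.5% lower), 0.0848% between the sides under EE, 13.7% for EE against oil in left ducts and 34.9% in right ducts. Across both side and exposure, which serve here only to order the levels, 8 of the 10 genes were called for right EE against left oil (18.9% of all tested genes) and 9 for left EE against right oil (44.7%). The median absolute log2 ratio of the 10 genes and of all genes was 0.45 and 0.27 between the sides under oil, 0.13 and 0.10 between the sides under EE, 0.62 and 0.17 for EE in left ducts, and 0.92 and 0.26 for EE in right ducts. The 10 genes were chosen with results of these data known, so these shares and medians describe them only.

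**Figure D1:**
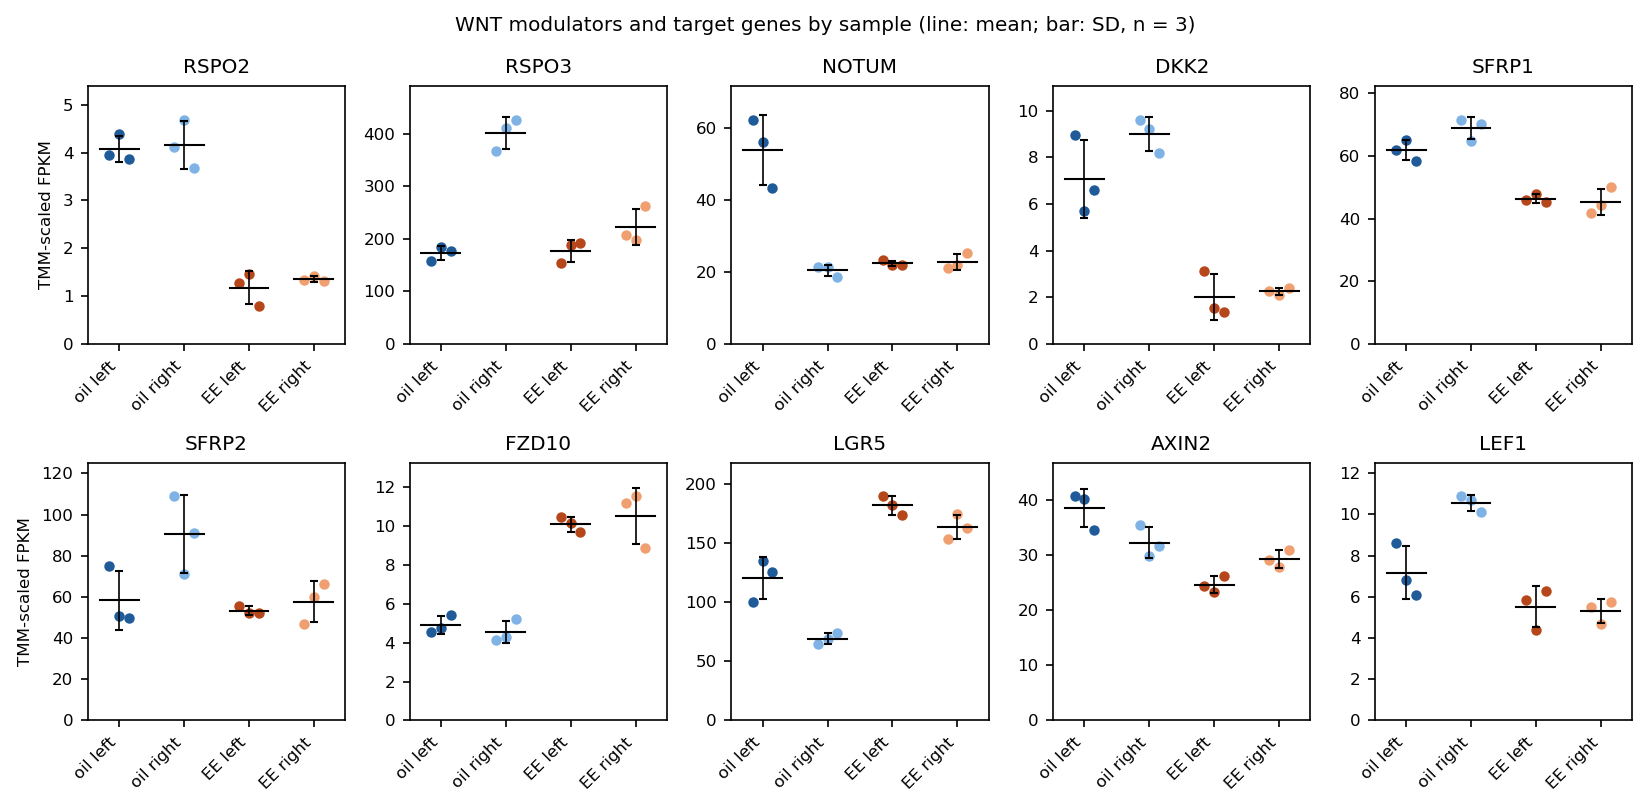
TMM-scaled FPKM (vertical axes, each from 0) of the 10 genes in the 3 samples of each group (points), with the group mean (line) and SD (bar). NOTUM stood at 43.25 to 62.4 FPKM in left oil ducts and at 18.6 to 25.2 in the other 9 samples, and RSPO3 at 367 to 427 in right oil ducts and at 154 to 262 in the other 9.

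RSPO3 (chromosome 3, 53778430 to 53838159, minus strand, in the Coturnix japonica 2.1 assembly, as are all positions here) encodes R-spondin 3, a secreted amplifier of WNT signals. Its level was 158, 185 and 177 FPKM in replicates 1, 2 and 3 of left oil ducts and 367, 411 and 427 FPKM in right oil ducts. Under EE it was 154, 188 and 191 FPKM on the left and 207, 198 and 262 FPKM on the right. The right oil ducts lay above all other samples, and the EE right ducts lay above both left groups. Under oil RSPO3 was 2.32-fold lower on the left than on the right (log2 ratio -1.21 ± 0.12, SE, adjusted p = 8.17e-07). In right ducts EE lowered it by a log2 ratio of -0.85 ± 0.11 (adjusted p = 3.14e-05), and in left ducts the ratio was 0.04 ± 0.11 (95% interval -0.21 to 0.28, adjusted p = 0.883). Under EE the side ratio was -0.33 ± 0.11 (95% interval -0.57 to -0.08), which did not pass over all genes (adjusted p = 0.473), although the groups did not overlap. The side difference itself changed with exposure by 0.89 ± 0.16 (interaction, adjusted p = 0.00165), a call kept when any 1 of the 12 samples was left out. In the order of the levels, right oil ducts stood first (mean 401 FPKM ± 31.3, SD, n = 3), followed by right EE (223 ± 34.7), left EE (178 ± 20.8) and left oil (173 ± 13.7). Among the latter 3 groups no neighbouring pair passed the test, but right EE against left oil did (0.36 ± 0.11, adjusted p = 0.0364). That call for RSPO3 ended with limma (0.34, adjusted p = 0.0677), library-size scaling (0.35, 0.052), the haemoglobin covariate (0.28, 0.123) or without replicate 1 of left oil, right oil and right EE together (0.35, 0.144). It also ended without left oil replicate 1 (0.30, adjusted p = 0.139) or 3 (0.38, 0.0770), or without right EE replicate 3 (0.23, 0.187). In bulk samples a lower level can come from fewer cells that express a gene or from less RNA in each, and these cannot be told apart.

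RSPO2 (chromosome 2, 119051038 to 119143969, minus strand), the other R-spondin of the set, was a low transcript here, between 0.802 and 4.69 FPKM in all samples against 154 to 427 FPKM for RSPO3. It stood at 3.96, 4.39 and 3.87 FPKM in left oil ducts, at 4.11, 4.69 and 3.68 FPKM in right oil ducts, at 1.26, 1.47 and 0.802 FPKM in left EE ducts and at 1.34, 1.43 and 1.31 FPKM in right EE ducts. All 6 EE samples lay below all 6 oil samples, and the sides overlapped under both exposures. EE lowered RSPO2 by a log2 ratio of -1.80 ± 0.22 in left ducts (adjusted p = 3.32e-05) and of -1.61 ± 0.21 in right ducts (adjusted p = 3.00e-05), a 3.48-fold and a 3.06-fold fall. In left ducts 1.32% of the tested genes had a larger ratio in either direction, and in right ducts 2.73%. The side ratio was -0.03 ± 0.21 (95% interval -0.47 to 0.41) under oil and -0.22 ± 0.22 (-0.68 to 0.25) under EE, so neighbours of the same exposure were not separated while the oil and EE levels were.

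NOTUM (chromosome 18, 4403700 to 4409716, plus strand) encodes the carboxylesterase that removes the lipid of WNT proteins, and in mammals it is itself raised by WNT signalling. It stood at 62.4, 56.3 and 43.25 FPKM in left oil ducts and at 21.3, 21.4 and 18.6 FPKM in right oil ducts. Under EE it stood at 23.3, 21.9 and 22.0 FPKM on the left and at 21.2, 21.9 and 25.2 FPKM on the right. Left oil ducts were alone in their range, and the other 3 groups lay close together. NOTUM was 2.64-fold higher on the left than on the right under oil (log2 ratio 1.40 ± 0.12, adjusted p = 2.98e-07), and 5.25% of the tested genes had a larger side ratio. EE lowered it 2.41-fold in left ducts (-1.27 ± 0.12, adjusted p = 3.14e-06). In right ducts the ratio was 0.16 ± 0.12 (95% interval -0.10 to 0.41, adjusted p = 0.343), which passed under library-size scaling (0.33, adjusted p = 0.0385) and limma (0.31, adjusted p = 0.0481). Neither of these fits used TMM scaling, and under them the median ratio of all genes there was 0.17 and 0.153. Between the sides under EE the ratio was -0.02 ± 0.12 (95% interval -0.28 to 0.23). The change of the side difference was -1.43 ± 0.17 (adjusted p = 4.63e-05), and the adjusted p stayed between 1.99e-05 and 0.000282 when 1 sample was left out. Left oil ducts (mean 54.0 FPKM ± 9.77, SD, n = 3) differed from the next group, right EE (22.8 ± 2.16), by the test (adjusted p = 2.96e-06), and the neighbours right EE, left EE (22.4 ± 0.758) and right oil (20.4 ± 1.57) did not. Left EE and right oil did not overlap for NOTUM, with a ratio of 0.13 ± 0.12 (adjusted p = 0.402) that passed under library-size scaling (0.34, adjusted p = 0.0273) and limma (0.33, adjusted p = 0.0325). Under these fits the median ratio of all genes for that comparison was 0.204 and 0.182.

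DKK2 (chromosome 4, 33762991 to 33874221, plus strand) encodes a dickkopf protein, which binds the LRP co-receptors. Its level was 8.95, 5.71 and 6.58 FPKM in left oil ducts, 9.62, 9.22 and 8.19 FPKM in right oil ducts, 3.13, 1.55 and 1.36 FPKM in left EE ducts and 2.28, 2.10 and 2.39 FPKM in right EE ducts. Every EE sample lay below every oil sample, and the sides overlapped. The EE ratio was -1.81 ± 0.25 in left ducts (adjusted p = 9.61e-05) and -2.00 ± 0.24 in right ducts (adjusted p = 1.39e-05), so DKK2 fell 3.51-fold and 3.99-fold, which in left ducts was close to the fall of RSPO2. Without left EE replicate 1, the highest EE sample, the left ratio was -2.29. Between the sides the ratio was -0.35 ± 0.23 (95% interval -0.84 to 0.15) under oil and -0.16 ± 0.25 (-0.69 to 0.36) under EE.

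SFRP1 (chromosome 22, 3934443 to 3944588, minus strand) and SFRP2 (chromosome 4, 17889795 to 17894348, minus strand) encode secreted proteins with a Frizzled-like domain that binds WNT proteins. SFRP1 stood at 61.9, 64.9 and 58.5 FPKM in left oil ducts, 71.5, 64.8 and 70.1 FPKM in right oil ducts, 46.0, 47.9 and 45.1 FPKM in left EE ducts and 41.6, 44.2 and 50.0 FPKM in right EE ducts. All oil samples lay above all EE samples, by less than for RSPO2 and DKK2. EE lowered SFRP1 by -0.41 ± 0.08 in left ducts (adjusted p = 0.00207) and by -0.60 ± 0.08 in right ducts (adjusted p = 2.93e-05), and its side ratio under oil was -0.16 ± 0.08 (95% interval -0.33 to 0.01, adjusted p = 0.139). SFRP2 stood at 75.0, 50.8 and 49.5 FPKM in left oil ducts, 108.95, 71.1 and 91.1 FPKM in right oil ducts, 55.7, 51.9 and 52.1 FPKM in left EE ducts and 47.0, 60.2 and 66.1 FPKM in right EE ducts. It was highest in right oil ducts, but left oil replicate 1 overlapped them. SFRP2 was higher on the right under oil (log2 ratio -0.63 ± 0.17, adjusted p = 0.00724) and EE lowered it in right ducts (-0.65 ± 0.17, adjusted p = 0.0063), whereas in left ducts the EE ratio was -0.14 ± 0.17 (95% interval -0.49 to 0.22, adjusted p = 0.669). Limma on log2(FPKM + 1) called neither (adjusted p = 0.0731 and 0.0681), and the side call also ended with the haemoglobin share as a covariate, where the ratio was larger (-0.75, adjusted p = 0.0681). The change of the SFRP2 side difference with exposure did not pass (0.51 ± 0.23, adjusted p = 0.188) but did without left oil replicate 1 (0.73, adjusted p = 0.0374).

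LGR5 (chromosome 1, 32869558 to 32948570, plus strand) encodes a receptor of R-spondins, known from mouse as a marker of WNT-dependent stem cells of epithelia. It was an abundant transcript, at 100.6, 135 and 126 FPKM in left oil ducts and 64.5, 68.8 and 73.8 FPKM in right oil ducts, and at 190.0, 182 and 174 FPKM in left EE ducts and 154, 174 and 163 FPKM in right EE ducts. Right oil ducts were lowest, left oil ducts next, and the EE groups were highest and overlapped each other. LGR5 was 1.75-fold higher on the left under oil (log2 ratio 0.80 ± 0.10, adjusted p = 1.5e-05). EE raised it 1.51-fold in left ducts (0.60 ± 0.10, adjusted p = 0.000698) and 2.37-fold in right ducts (1.25 ± 0.10, adjusted p = 2.35e-07), and the difference between these was past the threshold (interaction -0.65 ± 0.14, adjusted p = 0.00623, from 0.00106 to 0.0206 when 1 sample was left out). Its order was left EE (mean 182 FPKM ± 7.79, SD, n = 3), right EE (164 ± 10.4), left oil (120.5 ± 17.8) and right oil (69.0 ± 4.63), of which only the EE neighbours did not differ (side ratio under EE 0.15 ± 0.10, 95% interval -0.06 to 0.37).

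FZD10 (chromosome 15, 2848977 to 2852711, minus strand), a Frizzled receptor of WNT proteins, stood at 4.56, 4.76 and 5.45 FPKM in left oil ducts and at 4.14, 4.28 and 5.20 FPKM in right oil ducts. Under EE it stood at 10.5, 10.1 and 9.68 FPKM on the left and at 11.2, 11.5 and 8.90 FPKM on the right. All EE samples lay above all oil samples and the sides overlapped under both exposures. EE raised FZD10 2.05-fold in left ducts (1.04 ± 0.13, adjusted p = 6.23e-05) and 2.32-fold in right ducts (1.21 ± 0.13, adjusted p = 4.75e-06). The side ratio was 0.11 ± 0.14 (95% interval -0.18 to 0.40) under oil and -0.06 ± 0.13 (-0.34 to 0.21) under EE.

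AXIN2 (chromosome 18, 6592695 to 6614849, minus strand) encodes a scaffold of the complex that degrades beta-catenin and is widely used as a readout of WNT signalling, since the pathway raises its own inhibitor. It stood at 40.7, 40.2 and 34.5 FPKM in left oil ducts and 35.3, 29.8 and 31.6 FPKM in right oil ducts, and at 24.3, 23.2 and 26.2 FPKM in left EE ducts and 29.0, 27.7 and 30.9 FPKM in right EE ducts. Left oil ducts had the highest mean of the 4 groups, and all left EE ducts lay below every other sample. The left side was higher under oil by a small ratio (0.26 ± 0.09, adjusted p = 0.0325) with overlapping groups. That call ended without left oil replicate 1 (0.21, adjusted p = 0.116) or 2 (0.22, 0.107), or without right oil replicate 2 (0.20, 0.129) or 3 (0.24, 0.0888). It also ended with the haemoglobin covariate (0.33, 0.179) or without replicate 1 of left oil, right oil and right EE together (0.29, 0.068). EE lowered AXIN2 in left ducts (-0.65 ± 0.09, adjusted p = 0.000114), and in right ducts the ratio was -0.14 ± 0.09 (95% interval -0.33 to 0.05, adjusted p = 0.232). Under EE the left ducts all lay below the right ducts, with a ratio of -0.25 ± 0.09 (95% interval -0.44 to -0.06) that did not pass over all genes (adjusted p = 0.486). The change of the side difference passed (-0.50 ± 0.13, adjusted p = 0.0147) and did so without any 1 of the 12 samples (adjusted p from 0.00741 to 0.0434).

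LEF1 (chromosome 4, 33528795 to 33581917, plus strand) encodes a nuclear partner of beta-catenin that is also a WNT target. It stood at 8.59, 6.80 and 6.10 FPKM in left oil ducts, 10.9, 10.7 and 10.1 FPKM in right oil ducts, 5.86, 4.39 and 6.30 FPKM in left EE ducts and 5.51, 4.66 and 5.75 FPKM in right EE ducts. Right oil ducts lay above every other sample, and the EE groups overlapped each other. LEF1 was higher on the right under oil (log2 ratio -0.56 ± 0.17, adjusted p = 0.0165), a call that ended without left oil replicate 2 (-0.52, adjusted p = 0.0561) or 3 (-0.46, adjusted p = 0.0713), under library-size scaling (-0.38, adjusted p = 0.0846), with limma (-0.35, adjusted p = 0.0532) and with the haemoglobin covariate (-0.30, adjusted p = 0.587). EE lowered it 1.99-fold in right ducts (-0.99 ± 0.17, adjusted p = 0.000322), and the left ratio was -0.38 ± 0.17 (95% interval -0.74 to -0.01, adjusted p = 0.172). The change of the side difference did not pass (0.62 ± 0.24, adjusted p = 0.117), so the effect of EE on LEF1 is not shown to differ between the sides. AXIN2 and LEF1, both read as targets, thus had different orders of levels: AXIN2 was highest in left oil ducts (mean 38.5 FPKM ± 3.41) and LEF1 in right oil ducts (10.6 ± 0.388).

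**Figure D2:**
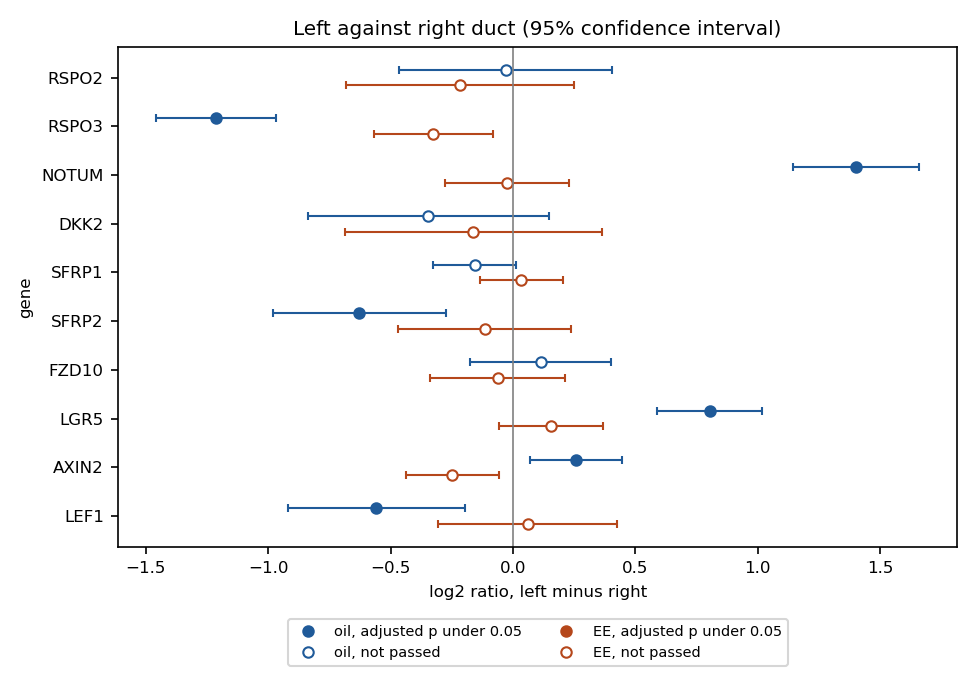
Log2 ratio of left to right ducts (horizontal axis) for each of the 10 genes under oil (blue) and EE (red), with 95% confidence intervals that are not adjusted for the number of genes. Filled points passed an adjusted p of 0.05. Under oil 6 genes passed, from -1.21 (RSPO3) to 1.40 (NOTUM), and under EE all 10 lay between -0.33 and 0.15 and did not pass.

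Between left and right ducts under EE, edgeR, DESeq2 and limma each called 0 of the 10 genes, and 2 of them, RSPO3 and AXIN2, had an unadjusted p under 0.05 (7.63% of all tested genes). Those 2 were also the genes whose groups did not overlap under EE, against 12.8% of all tested genes, and under oil the groups of 4 genes did not overlap, against 48.3%. The side difference changed with exposure for NOTUM, LGR5, AXIN2 and RSPO3, which is 4 of 10 against 11.8% of all tested genes, 1 upward (4.74% of all tested genes) and 3 downward (7.08%). DKK2, SFRP1, FZD10 and RSPO2 passed in neither side comparison nor in the interaction, where their ratios were 0.18 ± 0.34, 0.19 ± 0.11, -0.18 ± 0.19 and -0.19 ± 0.30. Library-size scaling moved the median side ratio of all genes under oil to 0.178 and the interaction to -0.145, and under it the calls under oil were 3732 higher and 1221 lower on the left instead of 2238 and 2185. Limma on log2(FPKM + 1), also without TMM scaling, moved these medians to 0.158 and -0.128. NOTUM, LGR5, RSPO3 and AXIN2 kept their interaction calls and directions under both.

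**Figure D3:**
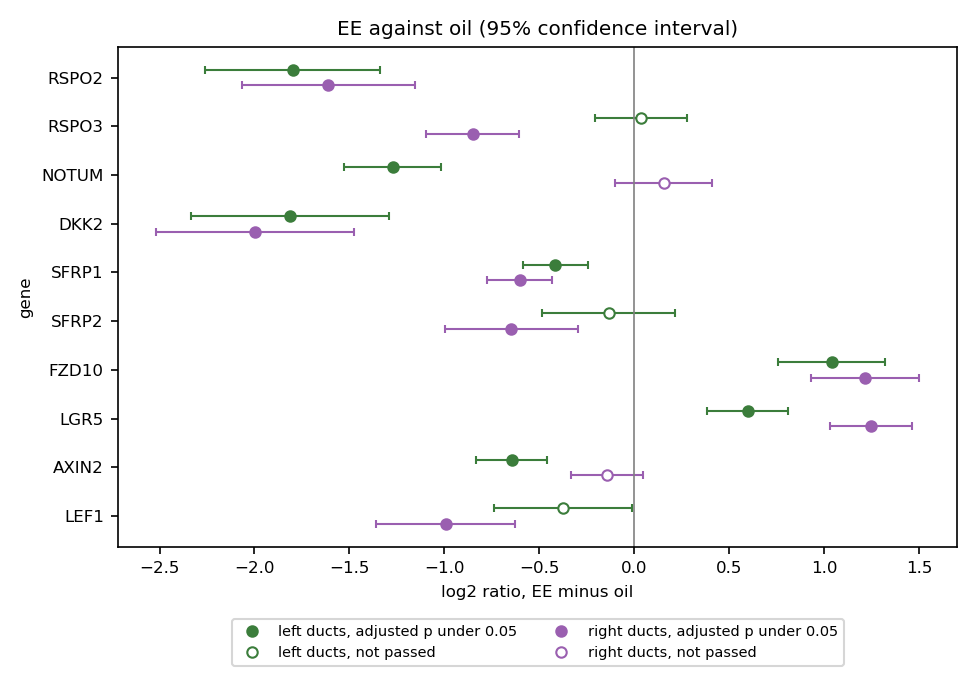
Log2 ratio of EE to oil (horizontal axis) for each of the 10 genes in left ducts (green) and right ducts (purple), with 95% confidence intervals that are not adjusted for the number of genes. Filled points passed an adjusted p of 0.05. In left ducts 2 genes rose and 5 fell, and in right ducts 2 rose and 6 fell.

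In left ducts EE changed 7 of the 10 genes, 2 higher (6.67% of all tested genes were called higher) and 5 lower (7.01%). In right ducts it changed 8, 2 higher (17.8% of all tested genes) and 6 lower (17.1%). The groups of those 7 and of those 8 genes did not overlap, against 31.8% of all tested genes in left ducts and 46.6% in right ducts. Library-size scaling moved the median EE ratio of all genes in right ducts to 0.17, with 3460 genes called higher and 1116 lower instead of 2093 and 2019, and it left 6 of the 10 genes called lower and made NOTUM the third called higher. The counts were 7 and 8 also with DESeq2, with the haemoglobin covariate, and without left oil, right oil and right EE replicate 1 together.

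A further list held other genes of the WNT pathway, of which 82 were in the table and 71 were tested. Under oil 18 of the 71 were called toward the left and 9 toward the right, against 19% and 18.5% of all tested genes, with a median log2 ratio of 0.13 against 0.00 for all genes. The split was 29 and 5 under library-size scaling and 7 and 4 with the haemoglobin covariate. Of 13 WNT ligands 2 favoured the left and 3 the right, with WNT7A (1.16 ± 0.09) on the left and WNT11 (-1.51 ± 0.14) and WNT4 (-0.85 ± 0.14) on the right. Of 8 other inhibitors 3 favoured the left and 2 the right. DKK3 (1.28 ± 0.14) and SOSTDC1 (0.49 ± 0.13) were higher on the left and TRABD2B, a protease that acts on WNT proteins (-0.91 ± 0.18), on the right. Of 18 other receptors and co-receptors 5 favoured the left, among them FZD4 (0.60 ± 0.12) and FZD8 (1.05 ± 0.23), and 1 the right, FZD2 (-0.70 ± 0.11). The transcript of beta-catenin, CTNNB1, was higher on the left (0.61 ± 0.08), and its protein was not measured. Also higher there were TCF7, a relative of LEF1 in the TCF/LEF family (0.81 ± 0.17), and WLS, which carries WNT proteins to the cell surface (0.31 ± 0.10). DVL3, which relays the Frizzled signal, was higher on the right (-0.37 ± 0.07). Of 11 other target and feedback genes 3 favoured the left and 0 the right, namely APCDD1 (0.80 ± 0.09), CCN4 (1.25 ± 0.25) and NKD1 (0.24 ± 0.08). With the haemoglobin covariate WNT4, SOSTDC1, FZD2, FZD8, DVL3, TCF7, WLS, CCN4 and NKD1 did not pass (adjusted p from 0.073 to 0.80). The ratios with the covariate were 0.85 for TCF7, 0.51 for SOSTDC1, 0.34 for WLS, 1.12 for CCN4 and -0.30 for DVL3, each close to its value above. They were nearer 0 for WNT4 (-0.51), FZD2 (-0.43), FZD8 (0.55) and NKD1 (0.07). WLS also did not pass without left oil replicate 1 (0.27, adjusted p = 0.0761) or right oil replicate 2 (0.23, 0.0991), nor NKD1 without left oil replicate 3 (0.18, 0.122) or right oil replicate 2 (0.18, 0.127), and DVL3 did not with limma (-0.18, 0.0861) or library-size scaling (-0.19, 0.0866). Without replicate 1 of left oil, right oil and right EE together, WLS (0.31, adjusted p = 0.0877) and NKD1 (0.28, 0.074) did not pass either. Between the sides under EE edgeR called 0 of the 71 (DESeq2 called 1 and limma 0), and the lowest p was that of the ligand WNT4, chosen after its values were seen (-0.57 ± 0.14, unadjusted p = 0.000836, adjusted p = 0.188).

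In left ducts EE changed 9 of the 71 upward and 16 downward, against 6.67% and 7.01% of all tested genes. In right ducts it changed 15 upward and 13 downward (25 and 11 under library-size scaling), against 17.8% and 17.1%. Of 13 WNT ligands 0 rose and 7 fell in left ducts, and 3 rose and 6 fell in right ducts. The ligand WNT4 (-0.87 ± 0.14 left, -1.15 ± 0.14 right) and the ligand WNT11 (-0.84 ± 0.15 left, -2.06 ± 0.15 right) fell on both sides. WNT9B, a low transcript, fell in left ducts from a mean of 2.19 to 0.175 FPKM (-3.60 ± 0.62), and WNT7A rose in right ducts (0.84 ± 0.08). Among 18 other receptors and co-receptors 5 rose and 1 fell in left ducts, and 5 rose and 2 fell in right ducts. LGR6, which like LGR5 binds R-spondins, rose from a mean of 1.77 to 5.95 FPKM in left ducts (1.74 ± 0.25) and from 1.78 to 6.97 FPKM in right ducts (1.97 ± 0.25). FZD9 (1.03 ± 0.15 left, 1.61 ± 0.15 right) rose and ROR1, a receptor tyrosine kinase that binds WNT proteins (-0.85 ± 0.08 left, -0.91 ± 0.08 right), fell on both sides.

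Among 8 other inhibitors EE raised WIF1, which binds WNT proteins (0.67 ± 0.11 left, 0.52 ± 0.11 right), and TRABD2B (1.59 ± 0.18 left, 0.73 ± 0.18 right) on both sides. In right ducts neither passed with the haemoglobin covariate (adjusted p = 0.0634 and 0.163). SOSTDC1 fell in left ducts (-0.75 ± 0.13) and DKK3 rose in right ducts (0.83 ± 0.13). The inhibitors thus moved both ways under EE, with NOTUM, DKK2, SFRP1 and SOSTDC1 lower and WIF1 and TRABD2B higher in left ducts. Of the 11 other target and feedback genes 1 rose and 6 fell in left ducts, and 2 rose and 4 fell in right ducts. Of all tested genes 6.67% were called higher and 7.01% lower in left ducts, and 17.8% and 17.1% in right ducts. DACT1, a binding partner of Dishevelled (-0.85 ± 0.08 left, -0.70 ± 0.08 right), and BAMBI, a decoy receptor of TGF-beta signalling (-1.29 ± 0.17 left, -1.13 ± 0.17 right), fell on both sides. TNFRSF19 fell in left ducts (-0.64 ± 0.10), and its mean in right ducts was also lower under EE (12.9 against 17.1 FPKM). APCDD1 rose in right ducts (0.54 ± 0.09). Of 17 cytoplasmic and nuclear components 1 rose and 1 fell in left ducts, the kinase GSK3B (0.34 ± 0.10) and TCF7 (-0.77 ± 0.17). The call of GSK3B ended without any 1 of the 6 left samples (adjusted p from 0.0629 to 0.133). In right ducts 2 rose and 1 fell, AXIN1 (0.56 ± 0.09), CTNNB1 (0.47 ± 0.08) and DVL1 (-0.51 ± 0.08). For these 17 components the counts were near or below the shares of all tested genes on each side.

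**Figure D4:**
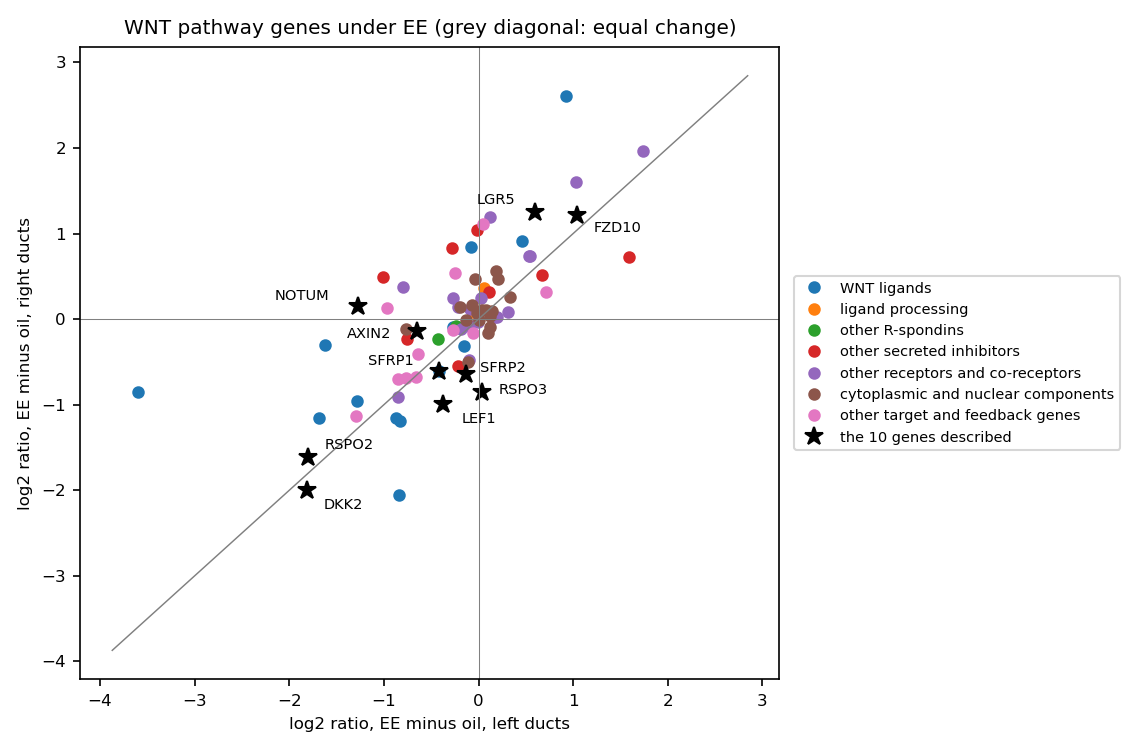
Log2 ratio of EE to oil in left ducts (horizontal axis) against that in right ducts (vertical axis) for the 10 genes (labelled stars) and the 71 other WNT pathway genes tested (points, coloured by role), with the line of equal change. RSPO2 and DKK2 lie at the lower left (-1.80 and -1.61, -1.81 and -2.00), FZD10 and LGR5 at the upper right, and NOTUM left of the line (-1.27 and 0.16).

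Markers of the tissues in the samples moved with the same groups, and their part in these results was not tested. All 10 markers of duct mesenchyme were above 1 FPKM in every library, and their summed level was 4801 to 5262 FPKM in left oil ducts, 3859 to 4668 in right oil ducts, 2913 to 3496 in left EE ducts and 2792 to 3090 in right EE ducts. That sum was lower under EE like RSPO2, DKK2 and SFRP1, but not every marker was. COL1A1, COL1A2, COL3A1, LUM, DCN and PDGFRA were lower under EE on each side without overlap. PDGFRB, TWIST1 and TWIST2 overlapped between oil and EE on each side. VIM overlapped in left ducts (162 to 173 FPKM under oil, 168 to 179 under EE). In right ducts VIM was lower under EE (165 to 181 against 211 to 274 FPKM). Between the sides under oil PDGFRA (105 to 124 FPKM left, 136 to 164 right), PDGFRB (26.9 to 27.9 and 33.3 to 34.6) and VIM were higher on the right without overlap. COL1A2, LUM and DCN were lower on the right, and the other mesenchyme markers overlapped. The 8 epithelial markers summed to 423 to 479 FPKM in left oil ducts, 341 to 348 in right oil ducts, 537 to 638 in left EE ducts and 537 to 616 in right EE ducts, an order of groups like that of LGR5, with 7 or 8 of them above 1 FPKM in each library. Between the sides under oil ELF3 went the other way (10.7 to 14.6 FPKM left, 15.4 to 17.2 right). KRT18 overlapped there (118 to 148 and 120 to 126 FPKM), and the other epithelial markers were higher on the left without overlap. Between oil and EE in left ducts, unlike LGR5, CLDN1 (112 to 129 and 127 to 141 FPKM), CLDN3 (52.7 to 66.2 and 57.9 to 70.8) and KRT18 (118 to 148 and 142 to 188) overlapped. The other epithelial markers in left ducts, and all 8 in right ducts, were higher under EE without overlap. Right oil ducts, where RSPO3 and LEF1 were highest, had the highest sums of 8 macrophage markers (72.1 to 81.5 FPKM against 21.1 to 40.9 in all other libraries, with 6 or 7 above 1 FPKM). They had the lowest sums of 10 markers of dividing cells (131 to 149 against 327 to 583 FPKM) and of 10 endothelial markers (89.4 to 111 against 148 to 189 FPKM). The endothelial marker KDR went the other way, at 13.8 to 26.4 FPKM in right oil ducts and 6.73 to 8.93 in all other libraries. The 10 smooth muscle markers summed to 657 to 1086 FPKM in right oil ducts, against 1468 to 1787 in left oil ducts, 1757 to 2028 in left EE ducts and 1156 to 1726 in right EE ducts. Between the sides under oil SYNPO2 (36.0 to 41.0 FPKM left, 30.0 to 40.9 right) and DES (117 to 161 left, 73.7 to 119 right) overlapped, and the others were lower on the right. Between oil and EE in right ducts SYNPO2 (30.0 to 40.9 and 26.9 to 34.8 FPKM), ACTA2, MYOCD, LMOD1 and MYLK overlapped, and the others were higher under EE. Among macrophage markers C1QA, LAPTM5, MPEG1 and CSF1R were higher in right oil ducts than in all other libraries. CD74 (6.65 to 8.37 against 5.29 to 8.2 FPKM), C1QB (3.61 to 5.63 against 1.74 to 5.67) and PTPRC (0.91 to 1.17 against 0.32 to 1.02) overlapped the other libraries. MARCO stayed at or under 0.35 FPKM in all libraries.

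AXIN2 and NOTUM lie on the same chromosome with 91 genes of the table between them, and LEF1 and DKK2 lie 181 kb apart on chromosome 4 with 4 genes between them. No other gene of the table overlapped any of the 10. Across the 12 samples, which share 4 groups, the log2 CPM of NOTUM and AXIN2 had a Pearson r of 0.738, that of RSPO2 and DKK2 0.943, and that of RSPO2 and FZD10 -0.939. Among the tested genes whose log2 CPM followed each of the 4 genes with a changed side difference most closely were MINAR1 (r = 0.987) and the calcium channel subunit CACNA2D2 (0.981) for RSPO3, and RGL1 (0.980), the chloride channel ANO1 (0.957) and SCUBE2 (0.956) for NOTUM. For LGR5 they were MANSC1 (0.983), the transcription factor SPDEF (0.982) and the receptor LPAR3 (0.978), and for AXIN2 they were PLD5 (0.930), the Rac activator TIAM1 (0.918) and PPFIBP2 (0.916).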

How the data were processed

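For 12 samples the authors deposited raw counts and FPKM values per gene, and the FPKM were returned from the counts and the exonic lengths to within 0.005. Per the submitters' processing notes, cutadapt 1.9.1, HISAT2 2.0.1, HTSeq 0.6.1 and DESeq2 1.6.3 were used. No label names a build or a strand setting, and all 16013 genes had the start and end of the RefSeq table of Coturnix japonica 2.1. Other columns used were the exonic lengths that the authors gave.

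Genes with an FPKM of at least 1 in all 3 samples of a group (11790) were tested in R 4.3.3 with edgeR 4.0.16 (TMM, quasi-likelihood, two-sided) in a model of 4 group means, and p-values were adjusted over all tested genes by Benjamini-Hochberg. The SE is the log2 ratio divided by the root of F. Groups come from the sample titles. The members and gene lists were chosen with earlier results of these data known. Named by rule were the 10 members, up to 3 called pathway genes with the lowest p per role and comparison, and 3 genes most alike each member called in the interaction, of which 1 is not reported here. Alternatives were DESeq2 1.42.0, limma 3.58.1 on log2(FPKM + 1) or + 0.1, other scalings, no filter, haemoglobin genes (7) left out or as a covariate, 3 libraries left out, a replicate block and each sample left out. Limma used the deposited FPKM without TMM scaling. The test was tried on simulated counts. Shares of counts cover counting error only.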

Additional observations from a re-analysis of the deposited data

Results flagged for a closer look

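For 4 of the 10 genes the left minus right difference changed between oil and EE by the interaction test, which is why they are listed: NOTUM (log2 ratio -1.43), LGR5 (-0.65), AXIN2 (-0.50) and RSPO3 (0.89). Of the 71 other WNT pathway genes 9 passed the same test, a share near that of all tested genes (11.8%). WNT7A (-0.93), DKK3 (-1.11), APCDD1 (-0.79) and CTNNB1 (-0.50), higher on the left under oil, and WNT11 (1.22), higher on the right, stayed called in all 12 fits with 1 sample removed. WNT9B (-2.75) kept it only without left oil replicate 3, right oil replicate 2 or right EE replicate 1, and lost it without any other (adjusted p from 0.0513 to 0.145). TRABD2B (0.86) kept it only without replicate 3 of left oil or left EE or replicate 2 of right oil or right EE (otherwise 0.0523 to 0.0911). FZD8 (-1.07) kept it only without replicate 1 of left oil, right oil or right EE or left EE replicate 2 (otherwise 0.0548 to 0.101). DVL1 (0.39) kept it only without left oil replicate 2, right oil replicate 1 or right EE replicate 2 (otherwise 0.0517 to 0.0833). The TRABD2B interaction also did not pass with limma (0.45, adjusted p = 0.228), library-size scaling (0.71, 0.0919) or without replicate 1 of left oil, right oil and right EE together (0.82, 0.134). That of DVL1 did not pass with limma (0.22, adjusted p = 0.315), library-size scaling (0.25, 0.263), no filter (0.39, 0.0544) or without those 3 libraries (0.34, 0.169). That of FZD8 did not pass with the haemoglobin covariate (-0.84, adjusted p = 0.129), and that of WNT9B with the covariate (-2.75, 0.0946) or no filter (-2.76, 0.0715). Without right oil replicate 3 the number called fell from 9 to 5.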

How the results depend on the processing

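For the 10 genes, 651 of 700 results under 10 alternatives and 813 of 840 with 1 sample left out kept their direction and side of the threshold, and the cause of the other changes was not tested. These totals include results that did not pass and left-out samples from neither compared group. They therefore do not measure how firm the calls are. Replicate numbers were not taken to pair samples, and the main model used no pairing. Under oil, deviations from the group mean correlated at 0.0575, 0.117 and 0.159 between left and right ducts of the same number. Different numbers gave -0.142 to 0.035 there. Under EE same numbers gave 0.0063, -0.0164 and 0.0831, and different numbers -0.157 to 0.145. Whether equal numbers mark paired ducts is thus not settled. The replicate block shared each number across oil and EE samples. It thus did not model ducts of the same embryo and cannot settle the pairing. The block changed no call of the 10 genes in the side, exposure and interaction comparisons. It ended the calls of GSK3B for EE in left ducts (adjusted p = 0.0591) and of WNT9B (0.0542) and TRABD2B (0.0529) in the interaction. The 3 libraries left out together were replicate 1 of left oil, right oil and right EE.

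With the haemoglobin covariate the calls under oil were 3 of the 10 genes, 11 other pathway genes and 1282 genes, and those for EE in right ducts 2511 and for left EE against right oil 1515. Between the sides under EE 10 genes were called, and 77 with DESeq2 (1 of them another pathway gene), 2 with limma at either pseudocount, 5 with the covariate or the replicate block, and 6 without the 3 libraries. Leaving out 1 sample gave 4 to 70 genes (70 without right EE replicate 2) and 0 to 1 pathway genes. In the interaction 9 pathway genes became 14 with DESeq2 and 15 with library-size scaling (1 higher, 14 lower), and 5 to 9 with 1 sample left out. For right EE against left oil 2228 genes became 1136 without the 3 libraries and 1385 to 2316 with 1 sample left out (1385 without right EE replicate 1).

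Signs that changed belong to results that did not pass. Under oil the side ratio of RSPO2 was 0.12 and 0.15 with limma (pseudocounts 1 and 0.1) and 0.16 with library-size scaling, that of SFRP1 0.0248, 0.0252 and 0.0217, and that of FZD10 -0.0925 with the covariate. Under EE that of NOTUM was 0.0135 and 0.0142 with limma, 0.00937 with library-size scaling and 0.0684 with the covariate, and that of SFRP1 -0.0234 without the 3 libraries. For EE in left ducts, RSPO3 was -0.0259 and SFRP2 0.0856 without the 3 libraries. For EE in right ducts AXIN2 was 0.0318 and 0.0330 with limma and 0.0263 with library-size scaling. The DKK2 interaction was -0.0293 with limma at 0.1. SFRP2 in right EE against left oil was 0.0219 with the covariate, 0.331 without the 3 libraries and 0.00651 with the replicate block.

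With 1 sample left out, the side ratio of RSPO2 ran from -0.110 to 0.0635 under oil and from -0.399 to 0.00589 under EE. Under EE it ran from -0.0751 to 0.0571 for NOTUM, -0.637 to 0.0640 for DKK2, -0.0234 to 0.112 for SFRP1, -0.169 to 0.00845 for FZD10 and -0.0448 to 0.196 for LEF1. The EE ratio in left ducts ran from -0.0259 to 0.130 for RSPO3 and from -0.237 to 0.0856 for SFRP2. The interaction ran from -0.369 to 0.0352 for RSPO2 and from -0.291 to 0.410 for DKK2, and right EE against left oil from -0.128 to 0.202 for SFRP2.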
